A study of Homo sapiens with 18 samples.

Results

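Small nucleolar RNAs (snoRNAs) and small Cajal body RNAs are short noncoding RNAs of the nucleolus and of the Cajal body. Every gene on the array whose symbol starts with SNORD, SNORA or SCARNA was taken, which gave 301 of 19782 genes: 176 SNORD, 101 SNORA and 24 SCARNA genes. They were chosen by name alone and not by their values. They were measured by 304 probes, and the brightest probe on average stood for a gene.

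Box C/D snoRNAs (SNORD) guide ribose methylation, which the enzyme fibrillarin carries out, and box H/ACA snoRNAs (SNORA) guide the change of uridine to pseudouridine by dyskerin. Their targets are mostly ribosomal RNAs, while small Cajal body RNAs (SCARNA) guide the same changes in the RNAs of the spliceosome. Most human snoRNAs lie in introns of other genes and are released when the intron is spliced out and trimmed, but a few, among them the U3 RNA (SNORD3 genes) and the U13 RNA (SNORD13), have promoters of their own. U3 does not guide a modification and is needed for the first cleavages of the precursor of ribosomal RNA.

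The samples were RNA of cells labelled HepG2, a line from a human liver carcinoma, transfected with scramble siRNA, with siRNA against the long noncoding RNA PSTAR or with siRNA against the RNA-binding protein hnRNP K. Each siRNA was studied without and with the DNA-damaging drug doxorubicin (DOX) at 400 nM, for which the series' design text gives 16 hours and the treatment protocol 8 or 16, so the time is not certain. The 6 groups held 3 Illumina bead arrays each, 18 in all, and each array had a median of 5.73 log2 units. The labels do not state whether replicate arrays stem from different cultures. The p-values therefore rest on a spread between arrays that could be technical only.

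The labels were checked first. HNRNPK, the target of one siRNA, stood at 11.72 ± 0.09 log2 units (SD, n = 3) in scramble arrays and at 11.95 ± 0.07 with DOX. It stood at 8.44 ± 0.02 and 8.32 ± 0.14 in arrays labelled si-PSTAR, and at 11.55 ± 0.12 and 11.36 ± 0.22 in arrays labelled si-hnRNP K. HNRNPK was therefore lowest in the arrays that carry the other label, and every direction below holds for arrays as labelled. Of 9 liver markers measured, albumin (ALB) had a median of 6.98, while the other 8, AFP, APOA1 and APOB among them, had medians of 5.48 to 5.77, close to the median of all probes of 5.72. The fibroblast collagens COL1A1 and COL3A1 had medians of 7.70 and 7.75, and 5 markers of blood, endothelial, squamous and muscle cells had medians of 5.24 to 5.78. The defining liver markers other than ALB were thus near or below the middle of the array. The arrays were clustered by correlation over the 12483 genes at or above the median of all probes. They formed a cluster of 6, made up of the arrays without DOX of scramble and si-hnRNP K. The other cluster held 12, all DOX arrays and the untreated si-PSTAR arrays. Untreated si-PSTAR against untreated scramble or si-hnRNP K, and DOX within scramble or within si-hnRNP K, cross the clusters, and cluster and group cannot be told apart there.

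Over all arrays, 43.5% of the 301 small RNAs were dim, with a mean under the all-probe median of 5.72, against 36.9% of all genes. The brightest probe was picked from several for 6483 of the 19782 genes but for only 3 of the 301. These shares therefore rest on unlike numbers of probes a gene. The dim share was 55.7% of SNORD genes, 25.7% of SNORA genes and 29.2% of SCARNA genes. SCARNA3 lay just below the median at 5.71 and SNORD4B just above it at 5.72. The SNORD genes of the imprinted clusters, most of which lie in long repeated arrays within parent-specific transcripts, were dim in 30 of 36 cases. Levels at this brightness carry little signal, so no fold change is given where a group's mean was below 5.72, and a log2 difference from such a group is a difference between readings and not the size of a change. The array was read from RNA amplified with a kit that primes on poly(A) tails, which mature snoRNAs lack, so the share of the signal that came from mature RNA, its precursors or tailed forms cannot be told apart. In these bulk samples, less RNA per cell and fewer cells that hold it cannot be told apart either.

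The share of dim genes differed between groups. It was 48.8% in untreated scramble arrays, 57.5% in scramble arrays with DOX, 52.5% and 50.2% in si-PSTAR arrays without and with DOX, and 34.6% and 43.5% in si-hnRNP K arrays without and with DOX. Over all genes the share without and with DOX was 38.4% and 37.1% in scramble arrays and 37.3% and 36.9% in si-PSTAR arrays. In si-hnRNP K arrays the share over all genes was 38.4% and 36.8%. For SCARNA genes the share was 62.5% in untreated scramble arrays and 41.7% with DOX, against 20.8% in both groups labelled si-hnRNP K. More of the small RNAs were thus above the middle of the array in the arrays labelled si-hnRNP K than in the scramble arrays at the same treatment.

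By the bounds of genes in the RefSeq annotation, without regard to strand, 10 of the 301 lay in no other named gene, 265 lay in 1 gene and 26 in several. The 3 U3 genes and U13 were among the 10 and are described first, although most calls were of members inside other genes. The SNORD3A probe gave 7.71, 7.68 and 7.68 log2 units in untreated scramble arrays and 8.15, 7.95 and 7.98 with DOX. In si-PSTAR arrays it gave 10.16, 10.10 and 10.19 without DOX and 9.79, 9.76 and 9.92 with DOX. In si-hnRNP K arrays it gave 11.09, 11.37 and 11.42 without DOX and 11.88, 11.80 and 11.90 with DOX. The 6 groups did not overlap, and the order was the same at both treatments, with scramble lowest and si-hnRNP K highest. SNORD3A was 12.2-fold higher in untreated si-hnRNP K arrays than in scramble (limma adjusted p = 7.65e-23) and 14.2-fold higher with DOX (adjusted p = 5.63e-23). In si-PSTAR arrays it was 5.51-fold higher without DOX, across clusters (adjusted p = 1.73e-19), and 3.46-fold higher with DOX, within 1 cluster (adjusted p = 1.77e-15).

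SNORD3C, also a U3 gene, gave 6.42, 6.48 and 6.61 in untreated scramble arrays and 6.94, 7.07 and 7.01 with DOX. Its values were 9.08, 9.02 and 8.84 in untreated si-PSTAR arrays and 8.57, 8.36 and 8.71 with DOX. The si-hnRNP K arrays gave 9.51, 9.81 and 9.69, and 10.59, 10.59 and 10.77 with DOX. The order of the groups was that of SNORD3A. SNORD3C was 8.97-fold and 12.5-fold higher than scramble in si-hnRNP K arrays without and with DOX, and 5.56-fold (across clusters) and 2.91-fold higher in si-PSTAR arrays.

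SNORD3D, another U3 gene, had another order. It gave 8.47, 8.62 and 8.25 in untreated scramble arrays but 5.99, 6.13 and 6.22 with DOX. The si-PSTAR arrays gave 7.52, 8.00 and 7.51 without DOX and 7.31, 7.65 and 7.75 with DOX, which overlap. The si-hnRNP K arrays gave 12.01, 12.15 and 12.14 without DOX and 9.66, 9.90 and 9.91 with DOX. SNORD3D was therefore lower with DOX in both siRNA groups whose untreated arrays are in the cluster of 6, 5.05-fold in scramble and 4.85-fold in si-hnRNP K, both across clusters (adjusted p = 7.79e-16 and 2.39e-15). Against scramble it was 12.6-fold and 13.1-fold higher in si-hnRNP K arrays without and with DOX, but in si-PSTAR arrays it was 1.71-fold lower without DOX, across clusters, and 2.75-fold higher with DOX. The U3 genes are near-identical copies, and whether each probe reads its own gene alone was not tested.

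SNORD13 encodes the U13 RNA, which is needed for acetylation of the RNA of the small ribosomal subunit. It gave 6.33, 6.41 and 6.39 in untreated scramble arrays and 6.60, 6.73 and 6.73 with DOX. All 12 arrays of the other 4 groups were higher: the si-PSTAR arrays gave 8.86, 8.90 and 8.88 without DOX and 8.73, 8.92 and 9.10 with DOX, and the si-hnRNP K arrays 8.47, 9.25 and 8.97, and 9.66, 9.51 and 9.30. SNORD13 was 5.67-fold (across clusters) and 4.69-fold higher than scramble in si-PSTAR arrays without and with DOX, and 5.72-fold and 6.99-fold higher in si-hnRNP K arrays. Without DOX, across clusters, the si-hnRNP K and si-PSTAR arrays overlapped for SNORD13 (difference 0.01 ± 0.13 log2 units, SE, adjusted p = 0.951).

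SCARNA2, a small Cajal body RNA gene outside other genes, gave 5.28 to 5.79 log2 units in all 12 scramble and si-PSTAR arrays. In si-hnRNP K arrays it gave 6.35, 6.45 and 6.27 without DOX and 6.85, 6.35 and 6.48 with DOX. Its group means were thus above 5.72 under si-hnRNP K only. All 3 si-hnRNP K arrays lay above all 3 scramble arrays at each treatment (limma adjusted p = 1.1e-06 and 5.11e-08), and no size is given because the scramble arrays were dim.

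**Figure D1:**
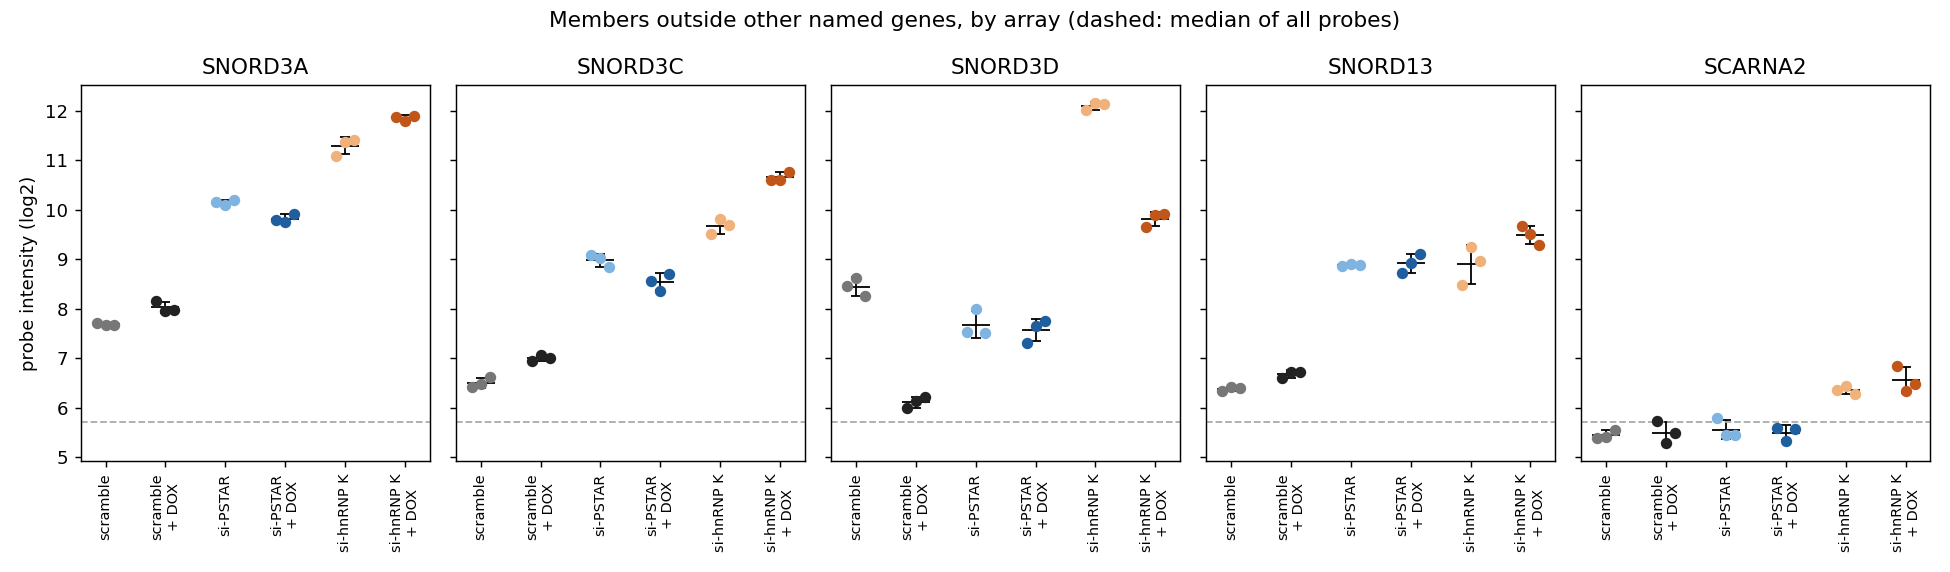
Probe intensity in log2 units of SNORD3A, SNORD3C, SNORD3D, SNORD13 and SCARNA2 in each of the 6 groups. Points are the 3 arrays, bars are the mean ± SD, and the dashed line is the median of all probes, 5.72. SNORD3A and SNORD3C follow the same order of groups, SNORD3D falls with DOX in scramble and si-hnRNP K arrays, and SNORD13 is low in both scramble groups.

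The comparison of si-hnRNP K with scramble asks what the siRNA changed at a fixed treatment, and each pair of groups lies within 1 cluster of arrays. With DOX, 119 of the 301 small RNAs were higher and 1 was lower, against 12.3% of all genes higher and 12.3% lower. Without DOX, 119 were higher and 0 lower, against 10.4% and 10% of all genes. The median difference was 0.16 log2 units at both treatments, against -0.0029 with DOX and -0.00072 without DOX over all genes. Of the 119 that were higher, 111 with DOX and 112 without DOX lay inside other named genes. Both comparisons were made in the same linear model, and the 2 treatments do not share arrays.

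The box H/ACA class had the largest median difference of the 3 classes at both treatments. With DOX, 59 of 101 SNORA genes were higher and 0 lower, with a median difference of 0.37 log2 units. Of 24 SCARNA genes 14 were higher and 0 lower, with a median of 0.28, and of 176 SNORD genes 46 were higher and 1 lower, with a median of 0.077. Without DOX the counts were 54 and 0 for SNORA, 12 and 0 for SCARNA, and 53 and 0 for SNORD. The imprinted SNORD genes, most of them dim, held 0 higher and 1 lower of 36 with DOX and 0 and 0 without DOX. The 1 lower member was SNORD109A, a dim gene of such a cluster, at 5.77, 5.64 and 5.52 in scramble and 5.38, 5.10 and 5.37 in si-hnRNP K arrays with DOX. It lost the call (-0.29 and -0.26) without the first scramble or the second si-hnRNP K array with DOX. Differences between the classes themselves were not tested.

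After the U3 genes, SNORA12, an intronic H/ACA RNA of CWF19L1, had the next largest rise with DOX. It gave 6.67, 6.69 and 6.40 in scramble arrays with DOX and 9.48, 9.49 and 9.37 in si-hnRNP K arrays with DOX, 7.28-fold higher (adjusted p = 1.1e-18). Without DOX the scramble arrays gave 5.83, 5.88 and 5.84 and the si-hnRNP K arrays 7.76, 8.17 and 8.01, 4.38-fold higher (adjusted p = 1.26e-15). The si-PSTAR arrays gave 6.95, 6.72 and 6.56 without DOX and 7.10, 7.22 and 7.25 with DOX, between the 2 other siRNAs at each treatment.

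SNORD46, a guide to ribosomal RNA methylation, gave 6.23, 6.04 and 6.09 in scramble and 8.89, 8.59 and 8.89 in si-hnRNP K arrays with DOX, 6.34-fold higher (adjusted p = 6.81e-16). SNORA63, in an intron of EIF4A2, gave 6.69, 6.78 and 6.61 against 9.06, 8.94 and 8.81, 4.74-fold higher (adjusted p = 4.59e-16). SNORA80E, in KHDC4, and SNORA9, in the noncoding gene SNHG15, were 4.65-fold and 4.34-fold higher with DOX. In each of these 4 genes all 3 si-hnRNP K arrays lay above all 3 scramble arrays. SNORA73A and SNORA73B, which encode copies of the U17 RNA used in processing of the small subunit RNA, were higher by 1.38 and 1.58 log2 units with DOX and by 1.52 each without DOX.

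SCARNA20, a small Cajal body RNA in an intron of USP32, was dim in both scramble and both si-PSTAR groups. It gave 5.62, 5.84 and 5.47 in scramble arrays with DOX and 5.77, 5.61 and 5.46 in si-PSTAR arrays with DOX, against 7.12, 7.05 and 7.14 in si-hnRNP K arrays with DOX. The scramble and si-PSTAR groups overlapped, and all 3 si-hnRNP K arrays lay above both (limma adjusted p = 4.4e-13 against scramble, with no size given). SCARNA13 and SCARNA16, above the median in both groups, were higher by 1.44 and 1.05 log2 units in the same comparison.

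**Figure D2:**
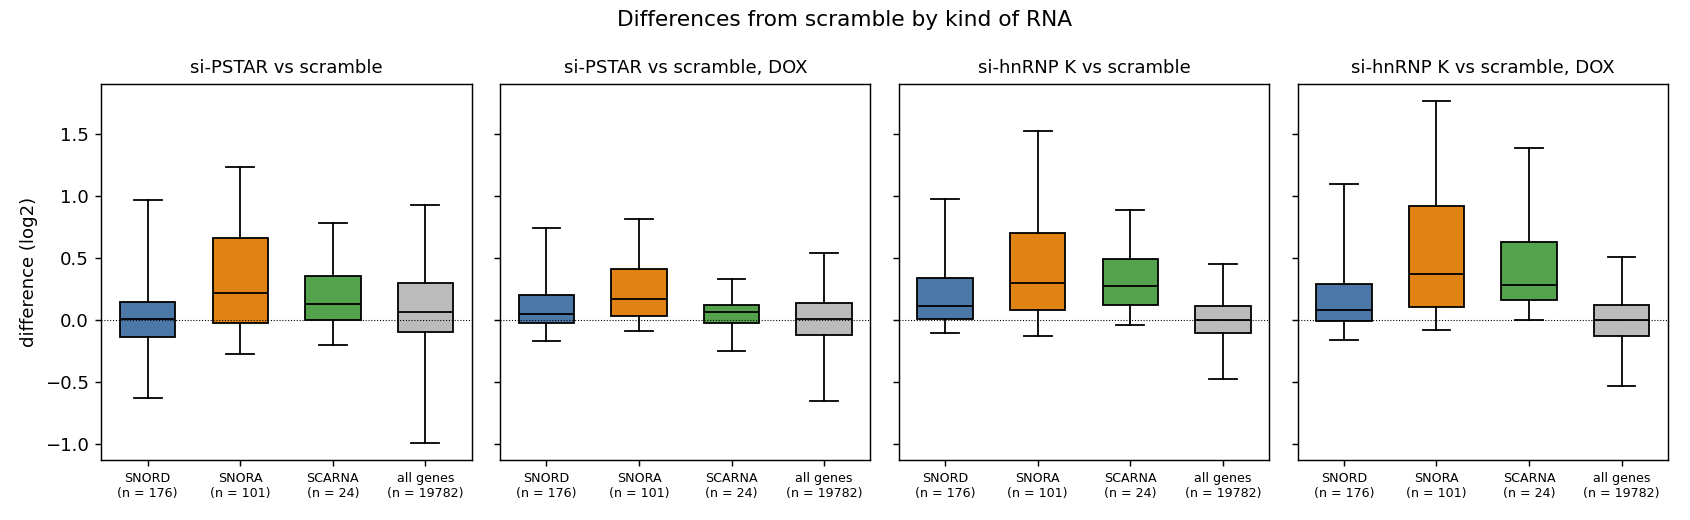
Differences from scramble in log2 units for SNORD, SNORA and SCARNA genes and for all genes, in 4 panels for the 2 siRNAs without and with DOX. Boxes run from the lower to the upper quartile with a line at the median, and whiskers run from the 5th to the 95th percentile of genes, which are not replicates. The median of the SNORA genes is 0.30 and 0.37 in the si-hnRNP K panels and 0.22 and 0.17 in the si-PSTAR panels.

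In arrays labelled si-PSTAR, where HNRNPK was low, the comparison with DOX lies within 1 cluster of arrays. There 74 small RNAs were higher and 3 lower, against 13.8% and 14.3% of all genes, with a median difference of 0.089 log2 units against 0.0065 over all genes. Of the SNORA genes 36 were higher and 0 lower, of the SNORD genes 34 and 2, and of the SCARNA genes 4 and 1. The imprinted SNORD genes held no call at adjusted p of 0.05 in limma. The lower members SNORD79, SNORD98 and SCARNA15 were all dim. Each lost its call when 1 array was left out, at -0.13 for SNORD79 and -0.22 for SCARNA15 without the first si-PSTAR array and at -0.26 for SNORD98 without the third scramble array.

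SNORA14B, an H/ACA RNA of TOMM20, stood highest in the si-PSTAR arrays. It gave 5.95, 6.30 and 6.21 in scramble, 8.06, 7.84 and 7.85 in si-PSTAR and 6.87, 6.87 and 6.98 in si-hnRNP K arrays with DOX. It was 3.40-fold higher in si-PSTAR than in scramble (adjusted p = 7.98e-15). SNORA67, an H/ACA RNA of the EIF4A1 gene, gave 8.77, 8.96 and 8.63 in untreated scramble and 10.77, 10.84 and 10.69 in untreated si-PSTAR arrays, 3.93-fold higher across clusters (adjusted p = 3.27e-16), and it was 2.19-fold higher with DOX, within 1 cluster.

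Without DOX the si-PSTAR and scramble arrays lie in different clusters, which cannot be told apart from the siRNA. There 90 small RNAs were higher and 31 lower, against 28.2% and 15.2% of all genes. With cyclic loess scaling the split was 73 and 43, and with arrays centred on their 75th percentile it was 81 and 54. Over all 19782 genes the split was 3434 and 4303 with cyclic loess and 4480 and 3950 with centring. SNORA6, an H/ACA RNA of RPSA, was 2.95-fold higher (adjusted p = 6.68e-12). The largest falls were those of SNORD36A, SNORD80, SNORD65, SNORD36C and SNORA32, which lay above 6 log2 units in the untreated scramble arrays and close to the median of all probes in the si-PSTAR arrays.

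The 2 labelled siRNAs were also compared with each other. Such a difference of means holds no scramble array, although those arrays enter the shared estimate of the spread and so the p-values. With DOX, within 1 cluster, 74 small RNAs were higher and 14 lower in si-hnRNP K than in si-PSTAR arrays, against 14.0% and 12.9% of all genes. SNORA12 was 4.78-fold, SNORD3D 4.76-fold, SNORD3C 4.31-fold, SNORD3A 4.10-fold and SNORA9 3.27-fold higher. Of the SCARNA genes 12 of 24 were higher and 1 lower. Against this direction, SNORA14B was 2.02-fold lower (adjusted p = 9.94e-10), SNORD17 1.66-fold, SNORD14D 1.64-fold, SNORA59A 1.60-fold and SNORA18 1.52-fold lower.

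SNORA18, an H/ACA RNA of TAF1D, gave 8.47, 8.38 and 8.16 in scramble, 9.10, 9.14 and 8.99 in si-PSTAR and 8.50, 8.45 and 8.45 in si-hnRNP K arrays with DOX. SNORD17, in SNX5, gave 6.82, 7.06 and 6.58, then 7.72, 7.49 and 7.57, then 7.15, 6.65 and 6.78 in the same groups. For both genes the si-PSTAR arrays lay above the other groups, and si-hnRNP K and scramble arrays overlapped. Without DOX, across clusters, 105 small RNAs were higher and 39 lower in si-hnRNP K than in si-PSTAR arrays, against 15.4% and 28.1% of all genes. The split was 117 and 17 with cyclic loess and 127 and 30 with centring on the 75th percentile. All 19782 genes split into 4287 and 3399 with cyclic loess and 3912 and 4427 with centring.

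The DOX comparisons ask what the drug changed under each siRNA. In scramble arrays, across clusters, 44 small RNAs were higher and 41 lower with DOX, against 31.9% and 10.4% of all genes. That split depended on the scaling: it was 5 and 61 with cyclic loess and 18 and 92 with centring on the 75th percentile. Over all 19782 genes the split was 2352 and 3029 with cyclic loess and 4226 and 3673 with centring. The median of all genes was 0.0995 log2 units with the deposited scaling, 0.012 with cyclic loess and -0.045 with centring. In si-hnRNP K arrays, also across clusters, 75 small RNAs were higher and 54 lower, against 28.5% and 9.12% of all genes. Their split was 36 and 59 under cyclic loess and 44 and 84 under centring. All genes gave 1709 and 2627 under cyclic loess and 3568 and 2849 under centring. In si-PSTAR arrays, within 1 cluster, 4 small RNAs were higher and 8 lower, against 5.76% and 4.42% of all genes. The total of 12 fell to 5 without the second si-PSTAR array with DOX. Under si-PSTAR, SCARNA10 and SNORA10 differed by -0.45 and -0.44 log2 units with DOX, and SNORA14B and SNORA12 by 0.44 and 0.45 (adjusted p = 0.0026, 0.00227, 0.00319 and 0.00633).

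A small set of SNORD genes fell far with DOX in both scramble and si-hnRNP K arrays. SNORD36A, a methylation guide in an intron of RPL7A, gave 7.84, 7.81 and 7.63 in untreated scramble arrays and 5.87, 5.94 and 5.80 with DOX, 3.71-fold lower (adjusted p = 2.5e-16). It gave 7.79, 7.75 and 7.85 in untreated si-hnRNP K arrays and 5.68, 5.86 and 5.58 with DOX. In si-PSTAR arrays it stood at 5.76 to 6.05 at both treatments. SNORD36A was thus bright in the 6 arrays of the smaller cluster and near the median of all probes in the other 12.

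SNORD80, in the noncoding gene GAS5, gave 7.32, 7.42 and 7.07 in untreated scramble and 7.18, 7.39 and 7.68 in untreated si-hnRNP K arrays, and 5.44 to 5.77 in the other 12 arrays. SNORD65, in SNHG29, gave 6.89, 7.18 and 6.77, and 7.45, 7.44 and 7.70, in the 6 arrays and 5.47 to 6.12 in the other 12. SNORD36C gave 6.95 to 7.76 in the 6 arrays and 5.69 to 6.30 in the other 12. These genes separate the arrays the way the clusters do, and in comparisons within a cluster they differed by at most 0.59 log2 units.

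SNORD43, a methylation guide in an intron of RPL3, was high in 1 group only. It gave 7.58, 8.02 and 7.89 in untreated si-hnRNP K arrays and 5.58 to 6.14 in the other 15. SNORA21, in RPL23, gave 7.14, 7.29 and 7.39 in that group, 6.46, 6.50 and 6.44 in si-hnRNP K arrays with DOX and 5.53 to 6.03 in the other 12. Both were highest in untreated si-hnRNP K arrays, where they were 4.03-fold and 2.45-fold higher than untreated scramble (adjusted p = 1.17e-15 and 2.44e-12).

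Among members that were higher with DOX, SNORD48 in SNHG32 rose 1.64-fold and SNORD104 in SNHG25 1.52-fold in scramble arrays. SNORA12 was the largest rise in both, 1.67-fold in scramble and 2.77-fold in si-hnRNP K arrays (adjusted p = 1.38e-06 and 2.47e-12). SNORD3A and SNORD3C differed by 0.34 and 0.50 log2 units with DOX in scramble arrays, which passed the threshold with the deposited scaling, but they differed by 0.020 (adjusted p = 0.911) and 0.16 (adjusted p = 0.281) with cyclic loess.

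**Figure D3:**
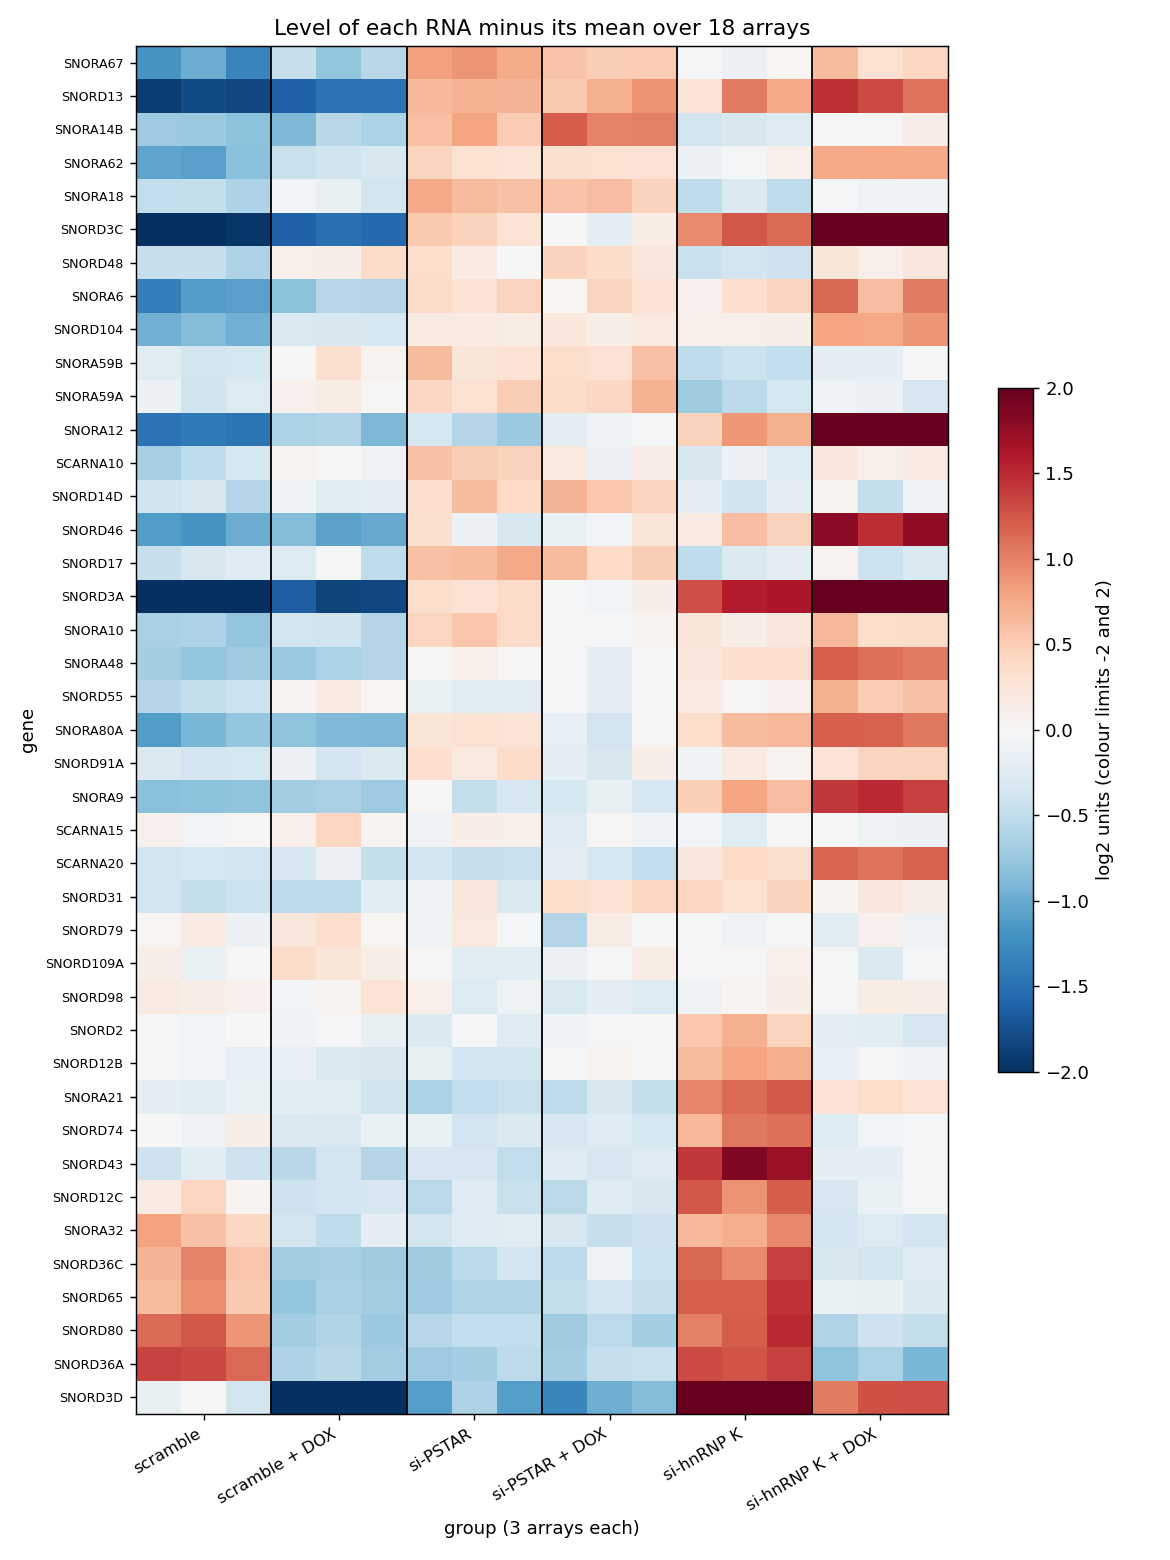
Level of each small RNA among the 5 largest called rises or falls of a comparison, minus its own mean over the 18 arrays, in log2 units, with 3 arrays in each of 6 groups across and 1 gene a row. Rows are sorted by the mean over the 6 arrays of the smaller cluster, so genes that are high in that cluster lie at the bottom, among them SNORD36A and SNORD80. SNORD3D, at the bottom, reaches 12.15 in untreated si-hnRNP K arrays and 5.99 in scramble arrays with DOX.

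The effect of DOX was then compared between siRNAs. Between si-hnRNP K and scramble, 8 small RNAs had a higher and 7 a lower DOX effect, against 1.19% and 0.662% of all genes, and the split was 12 and 7 with either other scaling. The total of 15 was 9 without the first untreated si-hnRNP K array. SNORD46 had a DOX effect of 1.27 log2 units in si-hnRNP K and 0.11 in scramble arrays, a difference of 1.16 ± 0.19 (SE, adjusted p = 0.000628). SNORD43 had effects of -1.80 and -0.17, a difference of -1.63 ± 0.14 (SE, adjusted p = 2.14e-08). Between si-PSTAR and scramble, across clusters, 34 small RNAs had a higher and 34 a lower DOX effect, against 9.34% and 23.8% of all genes. Their split was 41 and 6 with cyclic loess and 53 and 15 with centring. All 19782 genes split into 2429 and 1522 with cyclic loess and 2530 and 3038 with centring.

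Length was taken from the RefSeq annotation, with a median of 75.5 nucleotides for SNORD, 134 for SNORA and 155 for SCARNA genes, so length and class cannot be told apart between the classes. With DOX in scramble arrays, of the 88 members of up to 75 nucleotides 5 were higher (5.68%) and 25 lower (28.4%), and of the 35 members of over 140 nucleotides 13 were higher (37.1%) and 1 lower (2.86%). Of all genes 31.9% were higher and 10.4% lower in that comparison, so the share of rises among the long RNAs was near that of all genes. In si-hnRNP K arrays the counts were 5 (5.68%) and 28 (31.8%), and 19 (54.3%) and 2 (5.71%), against 28.5% and 9.12% of all genes. The count of rises among the long RNAs depended on the scaling. It was 2 in scramble and 9 in si-hnRNP K arrays with cyclic loess, and 8 and 11 with centring on the 75th percentile. The falls among the short RNAs were 29 in both with cyclic loess, and 37 and 39 with centring. Counts over all genes at these scalings are given with the DOX comparisons above. The 88 shortest members were all SNORD genes. These length classes were chosen after the values were seen.

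**Figure D4:**
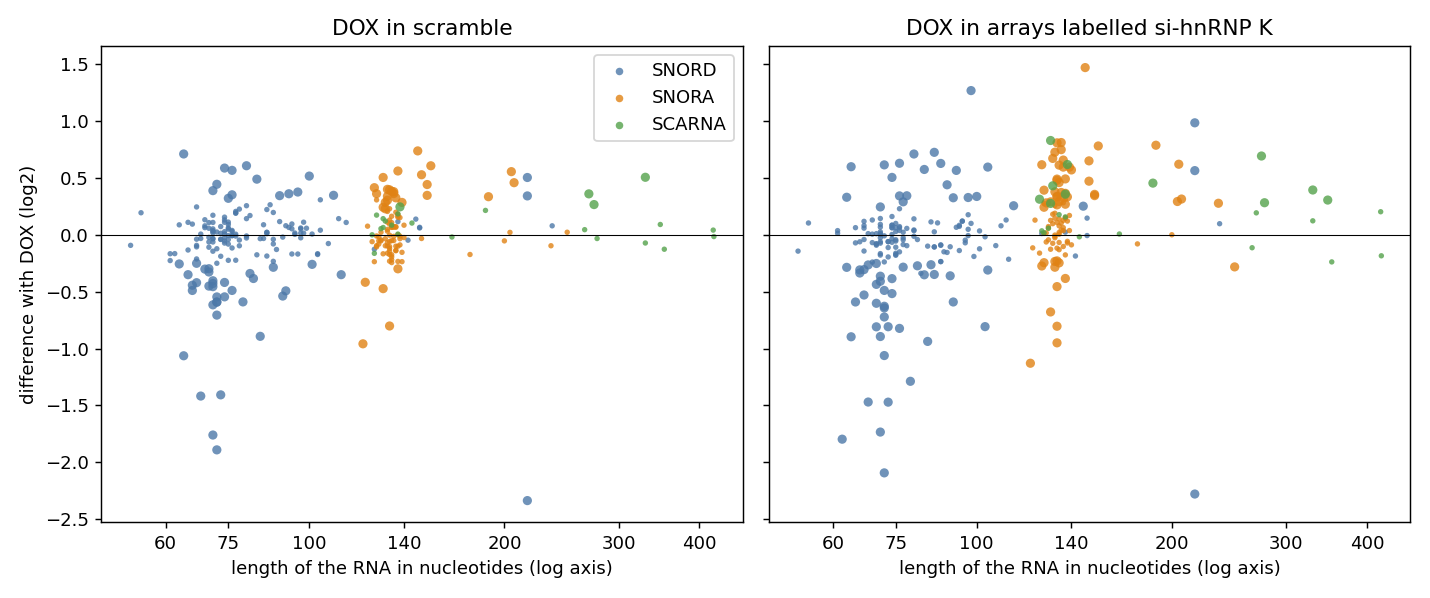
Difference with DOX in log2 units against the length of each of the 301 small RNAs in nucleotides (log axis), for scramble arrays on the left and si-hnRNP K arrays on the right. Large points passed an adjusted p of 0.05 in limma. SNORD3D, the lowest point in each panel, lies at -2.34 and -2.28.

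Most members lie in introns of other genes, so each was set beside the gene that holds it. There were 225 pairs of a small RNA and a measured host, with 123 hosts. Of 83 members in pairs that were higher in si-hnRNP K than scramble arrays with DOX, 26 had a higher host, 12 a lower host and 45 a host with no call. Among the 123 hosts 32 were higher and 15 lower, against 12.3% of all genes each way and 18.7% each way of genes above the median of all probes. Across the 225 pairs Pearson's r of the 2 differences was 0.15 and Spearman's rho 0.057, a description over pairs that share hosts and arrays. Members and hosts thus often differed in call. The hosts had a median level of 9.93 log2 units, but some were dim, RPL10 at 5.67 among them. SNORD genes of the imprinted host MEG8 made up 24 pairs. Dim members and dim hosts were kept, and a missing call in such a pair carries little information.

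Members of 1 host differed from each other, as hosts picked after their values were seen show. In EIF4A2, a translation initiation factor gene that was 0.22 log2 units from scramble (adjusted p = 0.079), SNORA63 was higher by 2.24 and SNORA4, dim in scramble, also passed, while SNORA81 differed by -0.048 and SNORD2 by -0.16, neither past the threshold. In KANSL2, which differed by 0.085, SNORA2B, dim in scramble, was higher, while SNORA2A and SNORA2C differed by 0.19 and 0.088. In NOP56, itself a protein of the box C/D particle, all 4 members were higher, by 0.33 to 0.65, and the host by 0.67. In RPL13A, a ribosomal protein gene that was lower by 0.28, all 4 members were higher, SNORD35A by 1.38. With DOX in scramble arrays RPL7A fell by 1.16, SNORD36A fell by 1.89, SNORD36C, dim with DOX, also fell, and SNORD24 and SNORD36B differed by -0.22 and -0.035. SNHG1 was higher by 1.06 in that comparison, while its 7 members differed by -0.42 to 0.11.

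**Figure D5:**
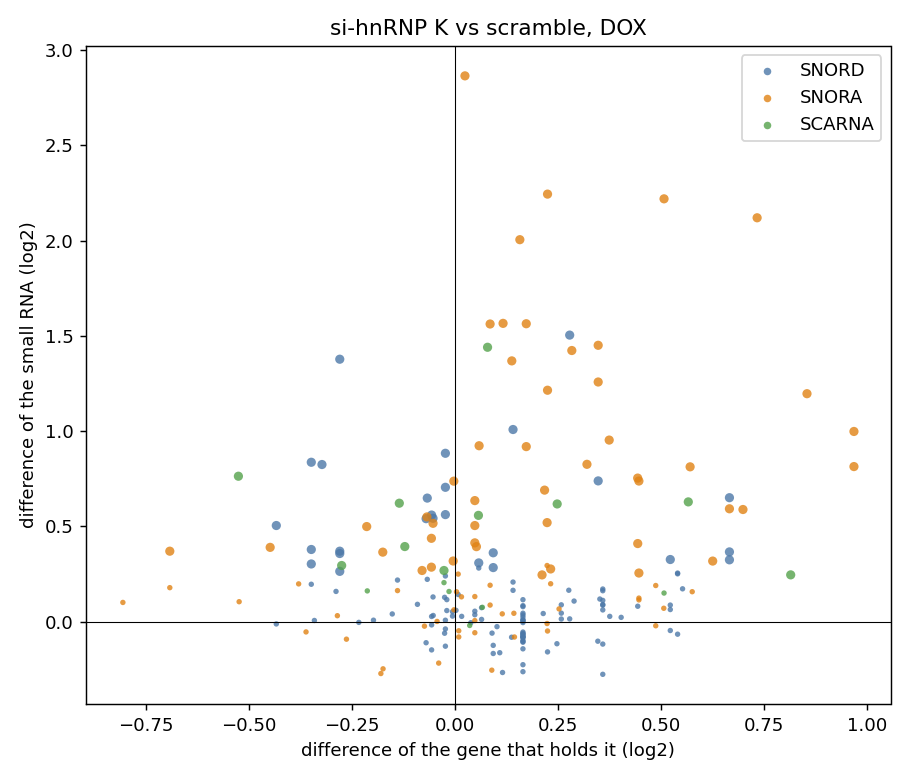
Difference between si-hnRNP K and scramble arrays with DOX, in log2 units, of each of 225 small RNAs (vertical axis) against that of the gene that holds it (horizontal axis). Large points are small RNAs past an adjusted p of 0.05 in limma. SNORA12, the highest point, lies at 2.86 with a host difference of 0.024.

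Genes that hold snoRNAs are known for starts that begin with a C and a run of pyrimidines, the pattern of ribosomal protein genes. The starts of 5 of the 6 hosts whose members are compared above are shown for that reason, as 30 bases of the host's own strand, 10 before and 20 from the RefSeq start in GRCh38.p14, with any run of pyrimidines that opens with a C at the start in capitals.
RPL7A (chr9:133348208-133348237, plus strand): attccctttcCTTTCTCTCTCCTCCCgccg
RPL13A (chr19:49487598-49487627, plus strand): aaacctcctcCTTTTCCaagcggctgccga
EIF4A2 (chr3:186783567-186783596, plus strand): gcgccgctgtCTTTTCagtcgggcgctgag
NOP56 (chr20:2652622-2652651, plus strand): cgctagccgcattgcgagccgaacccggga
SNHG1 (chr11:62855866-62855895, minus strand): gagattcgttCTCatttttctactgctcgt
A C followed by 4 or more pyrimidines at the annotated start was found in 33 of 117 hosts with a sequence, 28.2%, against 4.04% of 27305 genes. RPL7A, RPL13A and EIF4A2 had such a run, and NOP56 and SNHG1 did not. A match describes these letters only.

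Proteins that act on snoRNAs were read from lists of known genes. With DOX, 3 of 4 core proteins of the box C/D particle were higher in si-hnRNP K than scramble arrays and 0 lower, NOP56 by 0.67, NOP58 by 0.54 and the methylase fibrillarin (FBL) by 0.45 log2 units. Of 4 H/ACA core proteins 3 were higher, GAR1 by 0.57, the pseudouridine synthase dyskerin (DKC1) by 0.49 and NHP2 by 0.26. Of 23 proteins of the U3 small subunit processome, the particle in which U3 works, 11 were higher and 0 lower, with a median of 0.22, DHX37 by 0.89 and IMP4 by 0.76. Of 15 assembly factors 3 were higher and 0 lower, NOLC1, a chaperone of nucleolar particles, by 0.90. The median difference of all genes was -0.0029, with 12.3% of them higher and 12.3% lower, or 18.7% each way among genes above the median of all probes, where every gene of these 4 lists lay.

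Without DOX the same comparison gave 2 of 4 box C/D, 2 of 4 H/ACA, 8 of 23 processome and 3 of 15 assembly genes higher, against 10.4% of all genes and 15.9% of those above the median. NOLC1 was higher by 0.84, HEATR1, a processome protein, by 0.74 and FBL by 0.48. The 1 lower gene of these lists was UTP15, a processome protein, at -0.67 log2 units (adjusted p = 7.33e-05). Of 13 genes of 3′ trimming and decay 4 were higher and 1 lower, TOE1, a deadenylase that trims 3′ ends, at -0.51. Of 8 Cajal body genes 2 were higher, GEMIN5 by 0.50, and 2 lower, coilin (COIL), the scaffold protein of the Cajal body, at -0.32 among them. Of 22 genes for promoters and 3′ ends of spliceosomal-type RNAs 4 were higher and 2 lower, the Integrator subunits INTS10 by 0.78 and INTS2 at -0.87.

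In si-PSTAR arrays with DOX, 3 of 4 box C/D, 2 of 4 H/ACA, 12 of 23 processome and 6 of 15 assembly genes were higher and 0 lower in each list, against 13.8% of all genes higher and 14.3% lower, and 21.2% and 21.8% of genes above the median. NOLC1 was higher by 1.64, NOP56 by 1.01, DKC1 by 0.85 and BMS1, a processome GTPase, by 0.71 log2 units. Of 13 genes of 3′ trimming and decay 8 were higher and 0 lower, DIS3, a catalytic subunit of the RNA exosome, by 1.31. In si-hnRNP K arrays with DOX that list had 4 higher and 1 lower. Of 8 Cajal body genes 0 were called in si-PSTAR arrays with DOX (limma), and 2 were higher and 2 lower in si-hnRNP K arrays with DOX, GEMIN5 by 0.43 and GEMIN2 at -0.30. Of the 22 genes for promoters and 3′ ends, 5 were higher and 2 lower with DOX under each siRNA. The lists hold few genes, and the differences between their shares and those of all genes were not tested.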

How the data were processed

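The deposited table held log2 intensities of 43961 probes on 18 arrays. That the values are log2 and were quantile normalized by the authors follows from the values, since the sorted arrays differed by under 0.01 at 99.9955% of ranks. The software is not given in the sources used here, nor is the background correction, and the deposited values were used unscaled. Probes were named through the supplied table: 29511 had 1 symbol, 0 several and 14450 none. All 301 members matched RefSeq (GRCh38.p14) by gene identifier, and 0 symbols changed. RefSeq promoter entries matched 0 members.

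All 19782 genes were fitted in limma 3.58.1 (R 4.3.3) with a mean for each of the 6 groups, on 12 residual and 16.8 prior degrees of freedom, with no filter on low values. Tests were two-sided, adjusted by Benjamini-Hochberg over all genes in each comparison, with calls at 0.05. Exact permutation of 3 arrays against 3 cannot go below 0.1. On simulated data for si-hnRNP K against scramble with DOX (19782 genes), 71 of 100 changes of 0.5 and 100 of 100 of 1 log2 unit were called, with 12 false calls among 183. The simulation used independent normal noise and far fewer changed genes than the real comparison called, so these rates need not hold there. The number of arrays limits the precision. Same-numbered arrays deviated together with a median r of 0.0093, 6 of 45 pairs over 0.1, so the numbers do not pair them. No 2 arrays shared more than 0.091% of values.

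Named were members above the median of all probes, up to 5 called rises and 5 falls in a comparison, the U3 and U13 genes, and up to 3 genes with the smallest p from each list of other genes. Which members to name, and the lists, were chosen with earlier results of these data known. The alternatives tried were a filter at the median, averaging a gene's probes, fitting only the arrays compared, cyclic loess, centring on the 75th percentile, a trended robust prior, a replicate block and leaving out each array. Figures used matplotlib 3.10.9.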

Additional observations from a re-analysis of the deposited data

Results flagged for a closer look

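The DOX effect differed from that in scramble, by the test of that difference in limma, for 34 small RNAs upward and 34 downward in si-PSTAR arrays and for 8 and 7 in si-hnRNP K arrays. The shares of all genes were 9.34% upward and 23.8% downward in si-PSTAR arrays, and 1.19% and 0.662% in si-hnRNP K arrays. The 5 small RNAs with the largest difference each way under each siRNA, 20 in all, are given here. Against scramble, the DOX effect in si-PSTAR arrays was lower for SCARNA10 by -0.95 log2 units, SNORD3C by -0.94, SNORA67 by -0.85, SNORA10 by -0.67 and SNORD3A by -0.67. It was higher for SNORD65 by 1.61, SNORD36C by 1.61, SNORD80 by 1.64, SNORD36A by 2.01 and SNORD3D by 2.23. SCARNA10, a Cajal body RNA of NCAPD2, gave 7.90, 8.05 and 8.22 in untreated scramble arrays and 8.63, 8.56 and 8.49 with DOX, but 9.15, 9.06 and 9.03 and then 8.75, 8.44 and 8.70 in si-PSTAR arrays. It rose with DOX in the first pair and fell in the second. For SNORA10 the difference in DOX effect was -0.34 with cyclic loess and lost the call. All 10 set arrays of the cluster of 6 against arrays of the cluster of 12 in scramble only, so cluster and group cannot be told apart.

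The DOX effect in si-hnRNP K arrays was lower than in scramble for SNORD43 by -1.63, SNORD74 by -0.81, SNORD2 by -0.75, SNORA21 by -0.70 and SNORD12C by -0.70. It was higher for SNORA9 by 0.68, SNORA12 by 0.73, SNORA48 by 0.74, SCARNA20 by 0.76 and SNORD46 by 1.16. Here both DOX effects run from the cluster of 6 to the cluster of 12. SNORD43, SNORD74, SNORD2, SNORD12C, SNORA9 and SCARNA20, and SNORD65, SNORD36C and SNORD80 above, were dim in 1 or more of the groups compared, so that their values are differences between readings. SNORD74 and SNORD12C gave 6.36, 6.75 and 6.80, and 7.20, 6.86 and 7.16, in untreated si-hnRNP K arrays. Without the first of these arrays, SNORD12C at -0.63 and SNORA9 at 0.60 lost the call, as did SNORD12C at -0.62 without the third untreated scramble array.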

How the results depend on the processing

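The counts compared here are totals of called small RNAs, higher and lower together. Of 275 such totals under the alternatives, 272 stayed within 1.5 times the reported total. A total can stay while its split into higher and lower moves, and the split depended on the scaling in comparisons across clusters, as given above. The count for DOX in si-PSTAR arrays, 12, was 6 in a fit of the compared arrays alone and 5 without the second DOX array of that group, and the difference in DOX effect between si-hnRNP K and scramble, 15, was 9 without the first untreated si-hnRNP K array; these fits hold fewer arrays. Leaving out each array in turn gave 74 to 92 for DOX in scramble, 5 to 13 in si-PSTAR and 103 to 132 in si-hnRNP K arrays, 110 to 124 and 71 to 81 for si-PSTAR against scramble without and with DOX, 99 to 125 and 107 to 126 for si-hnRNP K against scramble, 126 to 146 and 79 to 93 for si-hnRNP K against si-PSTAR, and 60 to 69 and 9 to 18 for the differences in DOX effect of si-PSTAR and si-hnRNP K. With a replicate block, si-hnRNP K against scramble with DOX gave 122 calls in place of 120, and every total stayed within 1.5 times. For 111 named differences, 2732 of 2769 alternative values kept direction and side of the threshold, 37 (in 16 differences) kept direction and lost the call, and 0 reversed. Many of these values could not reverse. Under the median filter, the trended prior, the replicate block and the fit of compared arrays alone, the difference itself cannot change. Nor can it change when an array of a group outside the comparison is left out. There only p-values, and so calls and totals, could move. Averaging probes can move a difference only for the 3 members with 2 probes. With cyclic loess, SNORD13 with DOX in si-hnRNP K arrays differed by 0.30 and no longer passed. The cause was not tested. Brightness near the median of all probes limits what 131 members can show.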
